A study of Mus musculus with 2 samples.

Results

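The tectorial and otolithic membranes are the acellular gels that lie over the hair cells of the inner ear, and 8 genes for their matrix proteins (Tecta, Tectb, Otog, Otogl, Otol1, Oc90, Ceacam16 and Otoa) are described here across the epithelial cells of 2 single-cell RNA libraries. They are the rows with these symbols among the 32285 genes of both count matrices, and all 8 were found. Each library was a pool from 5 wild-type CBA/CaJ mice of 4 to 6 weeks. The AAV-Isl1 plus noise library came from ears given an adeno-associated virus (AAV) carrying Isl1, a LIM-homeodomain transcription factor, and then noise of 105 dB, 1 to 20 kHz, for 2 hours. The noise-only library came from the untreated contralateral ears of the same mice, which heard the same noise, so there was no ear without noise and no ear given an empty vector. Tissue was taken 2 days after the noise. The labels name cochlear sensory epithelium as the tissue, and give neither the promoter of the vector nor the cells it entered.

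The tectorial membrane of the cochlea is a sheet of collagen fibrils and of non-collagenous glycoproteins through which sound deflects the hair bundles. In the vestibular organs, the otoconial membrane carries calcium carbonate crystals over the maculae, and a cupula covers each crista. Supporting and other non-sensory epithelial cells secrete these matrices, mostly during development, and several of the genes are known deafness or vestibular genes.

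Kept barcodes, called cells here, numbered 18757 (noise only) and 21846 (AAV-Isl1 plus noise), with medians of 1048 and 1087 unique molecular identifiers (UMIs, each standing for 1 captured RNA molecule). About 1600 cells were loaded for a target of 1000 per library, per the labels, so many barcodes may not be whole cells. The libraries shared 145 barcodes. With 1 pooled library per group there was no test between groups, and the 95% intervals below cover counting error only. Levels are counts per 1e+06 UMIs of the same cells (CPM), and every ratio has the AAV-Isl1 plus noise library as its numerator.

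Cells were clustered without the 8 genes, so that their levels did not define the groups. Of 27 clusters, the 3 with the highest summed level of the 8 genes held 3243 of the 40603 cells: cluster 5, led by Epyc, cluster 18, led by Vmo1, and the hair cell-like cluster 24. Cluster 5 is called by its number, since it carried 4 root or spiral prominence cell markers but split into groups with markers of other cells. These were clustered again, without the 8 genes and without Isl1, into 17 sub-clusters, a step chosen after the first clusters were seen. The 14 sub-clusters of at least 90 cells are called by their leading gene. As a check of the labelled tissue, cluster 24 carried 10 hair cell markers, Myo7a, Pou4f3 and Otof among them, whereas Slc26a5, the motor protein gene of outer hair cells, had 12 and 8 UMIs in the libraries. Genes of the vestibular region were present, as described below.

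The start sites of Tectb, Otol1 and Otog are shown because these genes had their highest levels in the same sub-cluster and because the vector carried a homeodomain factor. Capitals mark TAAT or ATTA, the core motif of many homeodomain proteins on either strand; overlapping matches were each counted. The sequences are RefSeq on GRCm38.p6, the 250 bases before each start site, 5′ to 3′ on the gene's strand.
Tectb, chr19:55180476-55180725, plus strand: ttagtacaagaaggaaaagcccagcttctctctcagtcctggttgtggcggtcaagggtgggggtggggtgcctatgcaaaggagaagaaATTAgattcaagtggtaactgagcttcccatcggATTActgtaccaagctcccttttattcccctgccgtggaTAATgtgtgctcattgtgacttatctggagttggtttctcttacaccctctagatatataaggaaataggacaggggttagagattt
Otol1, chr3:70007363-70007612, plus strand: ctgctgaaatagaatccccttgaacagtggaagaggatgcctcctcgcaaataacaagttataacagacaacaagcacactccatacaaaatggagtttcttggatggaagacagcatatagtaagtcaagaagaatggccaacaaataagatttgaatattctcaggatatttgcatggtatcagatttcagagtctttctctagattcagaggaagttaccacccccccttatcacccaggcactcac
Otog, chr7:46240737-46240986, plus strand: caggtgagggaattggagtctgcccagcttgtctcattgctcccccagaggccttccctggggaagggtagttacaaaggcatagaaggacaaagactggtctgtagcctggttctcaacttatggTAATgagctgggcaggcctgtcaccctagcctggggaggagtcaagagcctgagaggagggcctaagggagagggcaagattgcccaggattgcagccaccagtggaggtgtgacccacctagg
The Tectb window held 3 matches, the Otog window 1 and the Otol1 window 0, and 54.9% of 32851 mouse windows of this length held at least 1. RefSeq windows matched 5 of the 8 genes. The Otoa window held 0 matches, and the windows of the 2 Tecta start sites held 0 and 2. These counts describe letters in a window and say nothing of Isl1 binding.

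Over all kept cells, 4 of the 7 genes with at least 50 UMIs (Tecta, Tectb, Otog and Otol1) were at least 1.5-fold higher in the AAV-Isl1 plus noise library, against 5.82% of all genes tested, and 1 (Ceacam16) was at least 1.5-fold lower, against 2.47%. The median log2 ratio of the 7 was 0.93, and that of all 15608 genes was -0.02. The eighth gene, Oc90, the main protein of otoconia, had 0 and 2 UMIs in the libraries and no ratio is given. Its count of 0 allows up to 0.0892 CPM in the noise-only library.

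**Figure D1:**
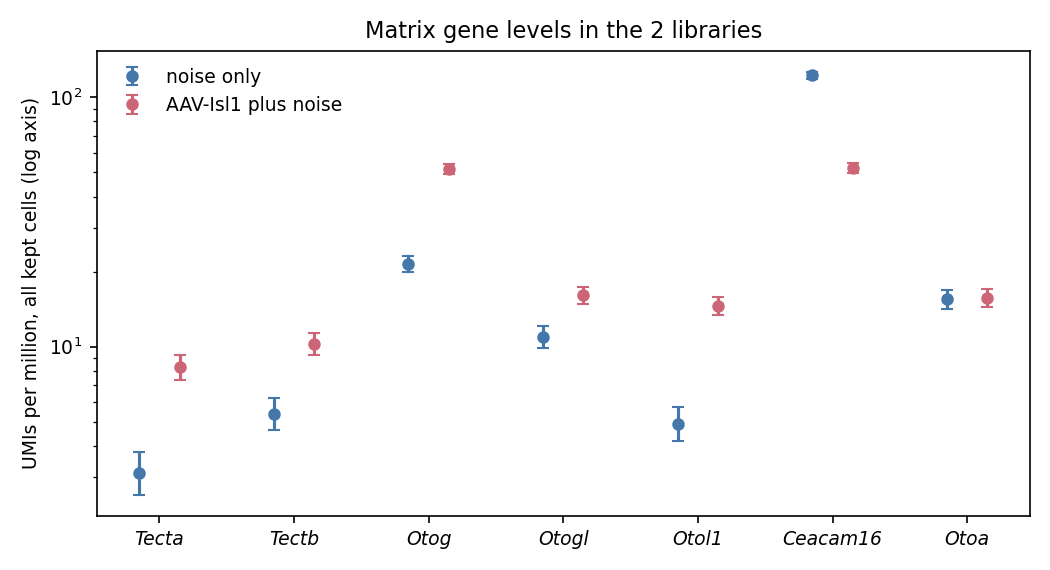
Levels of the 7 measured genes over all kept cells (y axis, CPM, log axis) in the noise-only library and the AAV-Isl1 plus noise library, with 95% Poisson counting intervals. Ceacam16 was lower in the AAV-Isl1 library, Otoa was at 15.5 and 15.7 CPM, and the other 5 genes were higher.

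Ceacam16, a secreted protein of the carcinoembryonic antigen family that is a structural part of the tectorial membrane, lies on the minus strand at chr7:19852097-19861299. It had 4123 UMIs (123 CPM) in the noise-only library and 1895 UMIs (52.1 CPM) in the AAV-Isl1 plus noise library, a ratio of 0.42 (95% interval 0.40 to 0.45). The noise-only library was thus the higher for this gene. An opposite-strand model, Gm19345, overlaps it with 177 UMIs in all barcodes.

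Tecta encodes alpha-tectorin and Tectb beta-tectorin, zona pellucida-domain glycoproteins that form the non-collagenous network of the tectorial membrane. Tecta (chr9:42329619-42399929, minus strand) had 105 UMIs (3.12 CPM) in the noise-only library and 301 UMIs (8.27 CPM) in the AAV-Isl1 library, a ratio of 2.65 (2.12 to 3.34). Tectb (chr19:55180733-55196313, plus strand) had 181 UMIs (5.38 CPM) and 373 UMIs (10.3 CPM), a ratio of 1.90 (1.59 to 2.29). Few cells carried Tectb. Its UMIs lay in 37 noise-only and 87 AAV-Isl1 cells, and the 5 cells with the most held 54.7% and 22.3% of them. Without those 5 cells in each library the Tectb ratio was 3.27, so its size rested on a handful of cells. That step took the larger share from the noise-only library. It thus raises the ratio by construction and does not check the direction.

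Otog and Otogl encode otogelin and otogelin-like, mucin-like glycoproteins of all the acellular membranes of the inner ear. Otog (chr7:46240987-46311434, plus strand) had 723 UMIs (21.5 CPM) in the noise-only library and 1873 UMIs (51.5 CPM) in the AAV-Isl1 library, a ratio of 2.39 (2.20 to 2.61). Otogl (chr10:107760531-107912134, minus strand) had 368 UMIs (10.9 CPM) and 584 UMIs (16.1 CPM), a ratio of 1.47 (1.29 to 1.68), just under the 1.5-fold mark. Both were higher in the AAV-Isl1 library.

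Otol1 encodes otolin, a collagen-like protein of otoconia and the otoconial membrane, and lies at chr3:70007613-70028708 on the plus strand. It had 165 UMIs (4.91 CPM) in the noise-only library and 530 UMIs (14.6 CPM) in the AAV-Isl1 library, and its ratio of 2.97 (2.49 to 3.56) was the largest of the 7. Otoa encodes otoancorin, which anchors the tectorial and otoconial membranes to the non-sensory cells beneath them. Otoa (chr7:121081650-121163097, plus strand) had 522 UMIs (15.5 CPM) and 570 UMIs (15.7 CPM), a ratio of 1.01 (0.89 to 1.14). Oc90 lies at chr15:65876053-65912397 on the minus strand.

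The 3 clusters, picked for their level of these genes, held between 76.8% (Tecta) and 87.7% (Ceacam16) of the UMIs of the 7. They are called the epithelium here, though cluster 17, stria marginal or vestibular dark cell-like, lay outside them. Over the other 24 clusters the median level was 10.8 CPM for Ceacam16, 6.64 CPM for Otog and 1.04 to 2.15 CPM for the other 5. In Schwann or satellite glia-like cells, 0.623% to 0.648% of cells had a Ceacam16 UMI and 0.226% to 0.403% an Otog UMI, at cluster medians of 635 to 759 UMIs. The highest Ceacam16 level outside the 3 clusters was 37.4 CPM, from 48 UMIs in cluster 19, pericyte or smooth muscle cell-like. Cluster 22, led by Fxyd2 and Kcnk2, had 27.3 CPM of Ceacam16 and at most 3.18 CPM of the other genes. It carried 4 markers listed for cochlear sulcus, limbus or interdental cells (Gjb2, Gjb6, Cldn11 and Car3). Epyc, Dcn, Slc26a4 and Fst of that list did not pass as its markers. It is therefore called by its number, and which cells it holds was not tested. Cluster 15, erythroid cell-like, stood above the other clusters outside the 3, with 32.1 CPM of Otog from 70 UMIs and 15.1 CPM of Otogl from 33 UMIs.

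Within the epithelium, Ceacam16 was highest in the Mylk, Rorb, S100a13 and Epyc sub-clusters, which, apart from Tectb in Rorb (85.6 CPM), had at most 14.7 CPM of Tecta, Tectb or Otol1. Its level was 5752 CPM in the Mylk sub-cluster (interval 5530 to 5981), where 96.4% of cells thinned to 1000 UMIs had a Ceacam16 UMI. It was 2045 CPM in the Rorb sub-cluster, 1878 in S100a13 and 1689 in Epyc. In the Apoc3 sub-cluster it was 319 CPM, and in the 8 others described below it was 12.6 to 75.6 CPM. The Mylk sub-cluster, for which Tecta and Otol1 were both at 0 UMIs in 312 cells, also had the highest Otoa level of all, 653 CPM, from 287 UMIs. By the fixed markers the Mylk and S100a13 sub-clusters carried 4 root or spiral prominence cell genes (Slc26a4, Epyc, Kcnj16 and Car13). The Wfdc18 and Apoc3 sub-clusters, with little Ceacam16 beside these, carried 4 genes of that marker list too, so all keep their gene names here.

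Otol1 and Tectb shared 1 main source. Otol1 reached 1506 CPM in the Cspg5 sub-cluster (152 cells), 574 CPM in Tnfaip2 (189 cells) and 360 CPM in Ocm (104 cells), and it was at 0 UMIs in the Gpc3 sub-cluster of 177 cells. Tectb reached 1399 CPM in the Cspg5 sub-cluster and 222 CPM in Tnfaip2, and it was likewise absent from the Gpc3 counts. Otog was also highest in the Cspg5 sub-cluster, at 2971 CPM with 90.2% of thinned cells positive, then in Tnfaip2 (1471 CPM), Ocm (1279 CPM) and Gpc3 (908 CPM). The Cspg5 and Tnfaip2 sub-clusters carried the supporting-cell markers Sox2, Slc1a3 and S100a1, as did the Rorb sub-cluster, which had Ceacam16. The median mitochondrial share of the Cspg5 and Tnfaip2 sub-clusters was 8.93% and 6.05%, and the Cspg5 sub-cluster was shallow, with medians of 861.5 and 749.5 UMIs in the libraries.

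Tecta was highest in the Gpc3 sub-cluster, at 303 CPM (interval 255 to 359), followed by Cspg5 at 262 CPM (190 to 352). Those intervals overlap, so their order was not resolved. Tnfaip2 (120 CPM), Ocm (120 CPM) and Ecrg4 (125 CPM) came next. Tecta thus reached sub-clusters with and without Otol1. The Gpc3 sub-cluster also had the highest Otogl level, 640 CPM, beside 409 CPM of Otoa. Otogl had a further source: in the Apoc3 sub-cluster it stood at 488 CPM from 75 UMIs, beside 319 CPM of Ceacam16. The 93 cells of that sub-cluster had 0 UMIs of Otog, Tecta, Tectb or Otol1. The Ecrg4 sub-cluster, named vestibular supporting or transitional cell-like from 5 markers (Hmx2, Hmx3, Lmx1a, Meis2 and Slc26a4), had 339 CPM of Otog, 219 CPM of Otoa and 34.2 CPM of Otol1.

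**Figure D2:**
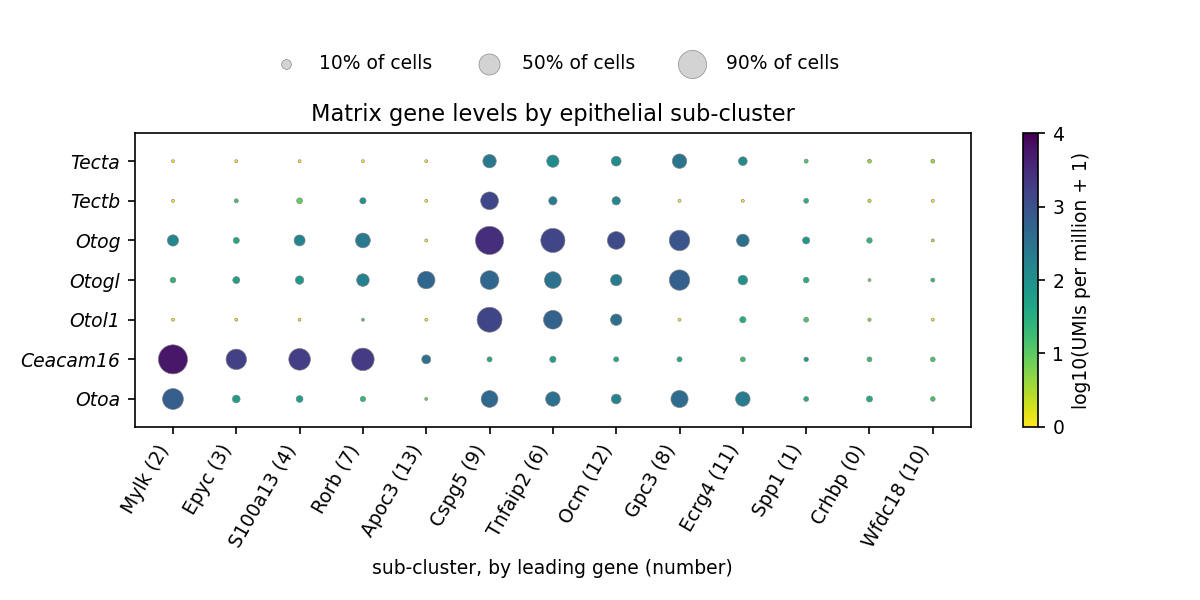
Level of each gene (colour, log10 of CPM + 1) and share of cells with a UMI after thinning to 1000 UMIs (dot area) in 13 of the 14 sub-clusters of at least 90 cells, both libraries together. Ceacam16 fills the columns at the left, and Otog, Otol1, Tectb and Tecta those from Cspg5 to Ecrg4.

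The hair cell-like Spp1 sub-cluster, at 12.2 to 75.6 CPM for the 7 genes, had little of any of them. The Ocm sub-cluster carried 11 hair cell markers and the high Otog and Otol1 levels given above, so hair cell genes and matrix genes were counted in the same sub-cluster. Whether its barcodes hold more than 1 cell was not tested beyond the doublet score, whose median was 0.04 there. That median was 0.008 in Spp1 and 0.053 in Gpc3. Scores above 0.1 were found in 15.4% of Ocm, 8.15% of Spp1 and 21.5% of Gpc3 cells. The Crhbp and Wfdc18 sub-clusters had at most 36.0 CPM of any of the 7 genes.

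Of the listed cochlear and vestibular region genes, none of them members, 5 picked ones divided the sub-clusters into 2 sides. Gata3, a transcription factor of the cochlear floor, and Epyc, a small proteoglycan of cochlear supporting cells, were set against the homeobox genes Hmx2, Hmx3 and Meis2, of which the first pair is known from vestibular development; these 5 were chosen from the lists after their values were seen. In 6 of the 14 sub-clusters (Mylk, Epyc, S100a13, Rorb, Apoc3 and 1 that is not described here), Gata3 plus Epyc summed to 539 to 5571 CPM and Hmx2, Hmx3 plus Meis2 to 0 to 33.1 CPM. In the other 8 the sums were 5.69 to 90.8 CPM and 109 to 347 CPM. These 8 include Crhbp, at 109 CPM, which carried the 3 Reissner membrane markers Vmo1, Slc26a7 and Otx2. They also include Wfdc18, at 197 CPM, with 4 root or spiral prominence cell markers. The second side is thus not a class of vestibular cells alone. The ranges of the 2 sides did not overlap for either sum. Not all listed genes divided this way: Hey2, of the cochlear list, was a marker of the Tnfaip2 sub-cluster, on the second side. The listed genes other than these 5 were not used for the split. The 5 genes took part in the clustering and were picked with their values known. This is therefore a description of the sub-clusters and not a test.

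Of the UMIs in the 14 sub-clusters, the Gata3 and Epyc side held 98.0% for Ceacam16, 44.7% for Otoa, 28.5% for Otogl, 20.6% for Tectb, 17.2% for Otog, 10.1% for Otol1 and 4.17% for Tecta. In the Mylk, Epyc, S100a13, Rorb and Apoc3 sub-clusters of that side Tecta was at 0 UMIs, and Otol1 was at 0 in all but Rorb, with 3 UMIs. Otoa and Otogl were therefore the genes most evenly spread over both sides. Across the 14 sub-clusters, Pearson's r of log2(CPM + 10) was 0.90 between Otol1 and Tectb, 0.81 between Otog and Tecta and -0.58 between Ceacam16 and Tecta. The first and last of these were the highest and the lowest of all member pairs. Ceacam16 stood at -0.32 with Otol1, -0.12 with Otog, -0.10 with Otogl, -0.06 with Tectb and -0.002 with Otoa. Over the 26 clusters of at least 90 cells its r was positive with each gene, from 0.52 with Tecta to 0.88 with Otol1. These are descriptions over clusters and sub-clusters that share 2 libraries.

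**Figure D3:**
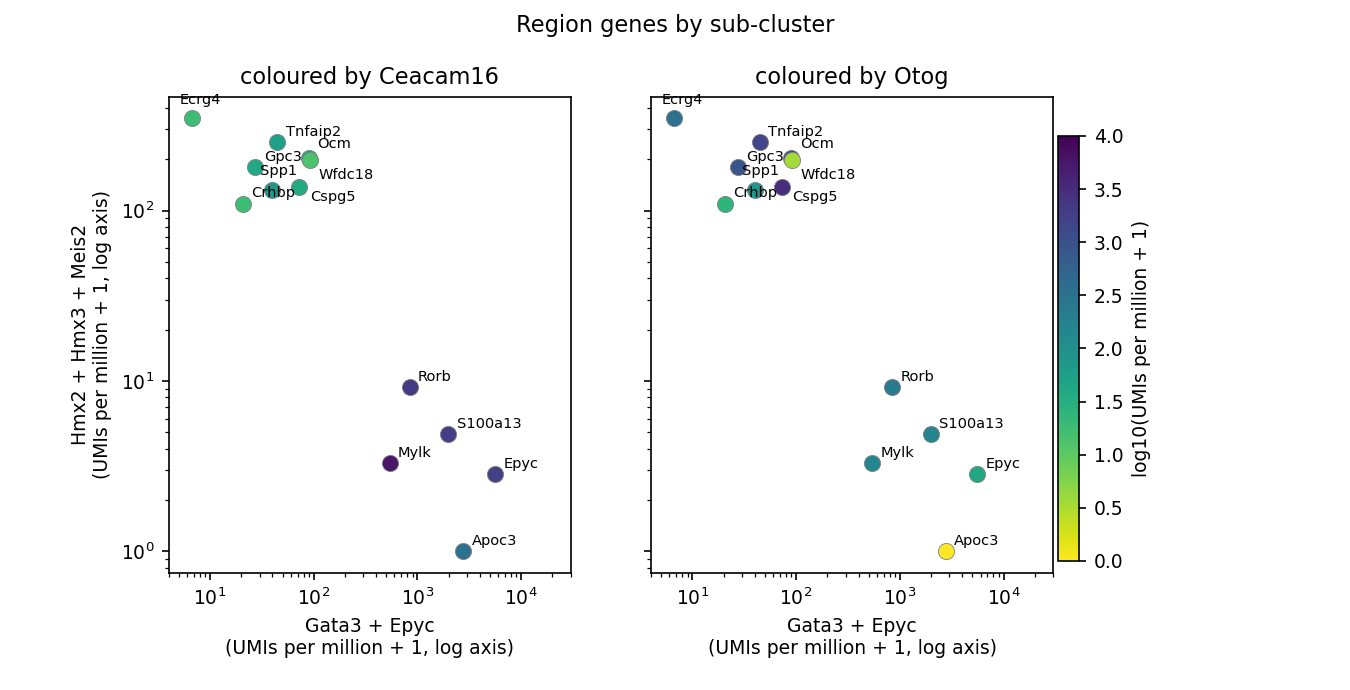
Summed level of Gata3 and Epyc (x axis) against that of Hmx2, Hmx3 and Meis2 (y axis) in 13 of the 14 sub-clusters, in CPM + 1 on log axes, coloured by the level of Ceacam16 (left) and Otog (right). Of those shown, the 5 sub-clusters with the most Ceacam16 lie at the lower right, and the 4 with the most Otog lie at the upper left.

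Ceacam16 also lay apart from Tecta, Tectb and Otol1 cell by cell. Among 2234 epithelial cells of at least 1000 UMIs, each thinned to 1000, 509 had a UMI of Ceacam16 and 90 of Tecta, and 1 cell had both where independence of the shares would give 20.5. Otol1 and Ceacam16 were together in 3 cells (expected 25.1), and Tectb and Ceacam16 in 2 (expected 12.1). By contrast, Tectb and Otol1 were together in 30 cells against 2.61 expected, an excess of 11.5-fold, and 82.7% of the 110 Otol1 cells also had Otog. Otoa went with both kinds: it was found together with Ceacam16 in 129 cells (expected 65.2) and with Otog in 101 (expected 45.3). These pairs went the same way in each library. In noise-only cells, Tecta, Tectb and Otol1 were each together with Ceacam16 in 0 cells (expected 5.93, 4.37 and 5.61), and in AAV-Isl1 cells in 1, 2 and 3 cells (expected 10.7, 5.85 and 13.8). The pair of Otog and Ceacam16 did not go the same way in each library. Its observed over expected was 1.10 in noise-only cells and 0.51 in AAV-Isl1 cells. Otogl and Otoa likewise stood at 0.93 and 2.21.

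**Figure D4:**
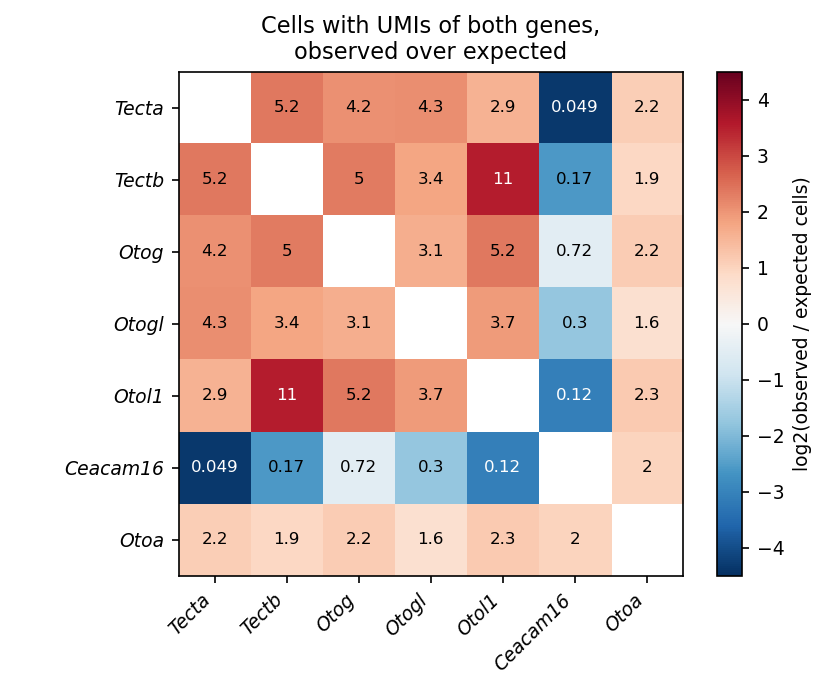
Cells with UMIs of both genes over the number expected if the genes were independent, for each pair of the 7 measured genes, in 2234 epithelial cells thinned to 1000 UMIs. Ceacam16 was seen less often than expected with every gene but Otoa, and all other pairs were seen together more often than expected.

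Of the 509 thinned Ceacam16 cells, 49.7% had a UMI of Gata3 or Epyc, the pair picked above (interval 45.3% to 54.1%), against 24.3% of all 2234 cells. Of the 90 Tecta cells 0 had one, which allows up to 4.02%, and of the 110 Otol1 cells 2.73% had one. UMIs of Hmx2, Hmx3 or Dlx5 were sparse: they lay in 0.982% of Ceacam16 cells and 13.3% of Tecta cells (7.08% to 22.1%), but in 2.73% of Otol1 cells, the same share as in all cells. This set holds Dlx5 in place of Meis2, unlike the sum that divided the sub-clusters. Meis2 lay in 0.393% of Ceacam16 cells, 11.1% of Tecta cells (5.46% to 19.5%), 8.18% of Otol1 cells (3.81% to 15.0%) and 5.66% of Tectb cells. Its share of all cells, 6.80%, lies inside the Tecta and Otol1 intervals. Over the full lists, 60.7% of Ceacam16 cells had a cochlear region UMI and 16.3% a vestibular one, against 28.2% and 46.4% of Otol1 cells and 40.2% and 37.8% of all cells. The vestibular list leans on Spp1, a hair cell and bone matrix gene that was present in every sub-cluster. Without Spp1 the vestibular share was 6.48% of Ceacam16 cells and 28.2% of Otol1 cells (20.0% to 37.6%), beside 27.7% of all cells, which lies inside the Otol1 interval.

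Whether the overall ratios came with the share of UMIs from each group of cells or with the level in it was described by holding one at its noise-only value. Units were the 17 sub-clusters and the other 24 clusters. With noise-only levels and the AAV-Isl1 shares of UMIs, the Ceacam16 ratio was 0.54, and with noise-only shares and AAV-Isl1 levels it was 0.88. The same pair of ratios was 2.27 and 1.66 for Otol1, 2.01 and 1.502 for Tecta, and 1.83 and 1.47 for Otog. It was 2.14 and 1.30 for Tectb, 1.28 and 1.03 for Otogl, and 1.07 and 0.89 for Otoa. The part from shares was the farther from 1 in all but Otoa. The 2 parts need not multiply to the ratio over all cells.

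The cell numbers behind these shares differed by side. The 6 sub-clusters on the Gata3 and Epyc side held 861 noise-only and 582 AAV-Isl1 cells, and the 8 on the other side 570 and 1094. Among single sub-clusters, Mylk held 204 and 108 cells, Epyc 184 and 116, Cspg5 42 and 110, Tnfaip2 35 and 154, and Gpc3 49 and 128. Each library is 1 dissection pool, so how much of each epithelium was dissected and treatment cannot be told apart.

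Within the main clusters the ratios were mixed with these shares. In cluster 5, 4 of the 7 measured genes were at least 1.5-fold higher (14.6% of all genes there) and 1 was at least 1.5-fold lower (6.96%). Otol1 was at 92.0 CPM in the noise-only and 331 CPM in the AAV-Isl1 cells of that cluster, a ratio of 3.60 (2.98 to 4.38). Ceacam16 was at 2314 and 1219 CPM, a ratio of 0.53 (0.50 to 0.56). In cluster 18, 5 of 6 were at least 1.5-fold higher (13.0%) and 1, Ceacam16, was lower (7.84%), from 43 UMIs and with an interval of 0.29 to 1.10. Tecta was there at 41.9 and 122 CPM, a ratio of 2.91 (2.06 to 4.20). Without the 5 cells with the most UMIs of the gene in each library, the Tecta ratio was 7.07 in cluster 5 and 6.11 in cluster 18, the Tectb ratio in cluster 5 was 4.01 in place of 2.12, and the Ceacam16 ratio in cluster 18 was 0.26. That step takes 5 cells from each library however many carry the gene, so these values do not check a direction. With cells thinned to 1000 UMIs, Otol1 in cluster 5 stood at 5.95 and Tectb at 3.52. The median log2 ratio of the members was 1.09 in cluster 5 and 1.32 in cluster 18, beside 0.05 and 0.02 for all genes.

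Within the Cspg5 and Tnfaip2 sub-clusters, the ratios of Otog and Otol1 were closer to 1 than over all cells. In the Cspg5 sub-cluster, Otog was at 2600 CPM in noise-only and 3125 CPM in AAV-Isl1 cells, a ratio of 1.20 (0.98 to 1.48). Otol1 was there at 1767 and 1398 CPM, a ratio of 0.79 (0.61 to 1.04), and Tectb at 1483 and 1365 CPM, a ratio of 0.92 (0.69 to 1.23). All 3 intervals include 1. These ratios lean on few cells: without the 5 cells with the most UMIs of the gene in each library, Tectb in the Cspg5 sub-cluster stood at 4.14, and that step takes 5 of 42 noise-only cells but 5 of 110 AAV-Isl1 cells. In the Tnfaip2 sub-cluster, Otog had a ratio of 0.82 (0.65 to 1.04) and Otol1 1.27 (0.83 to 2.02). Thinning to 1000 UMIs moved these to 0.53 and 2.07. It leaves out cells with fewer UMIs, so only 15 noise-only and 71 AAV-Isl1 cells remained. Otol1 was at 2.38 without its 5 top cells, while Otog was then at 1.22 and so on the other side of 1. In Tnfaip2 that step takes 5 of 35 noise-only cells but 5 of 154 AAV-Isl1 cells. Tectb there had 51 noise-only UMIs, 31 of them in 1 cell, and 10 AAV-Isl1 UMIs.

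In the Gpc3 sub-cluster, Tecta was at 201 CPM in its 49 noise-only cells and 354 CPM in its 128 AAV-Isl1 cells, a ratio of 1.76 (1.17 to 2.74). Otogl was at 488 and 714 CPM, a ratio of 1.46 (1.12 to 1.93), and Otog at 762 and 980 CPM, a ratio of 1.29 (1.03 to 1.61). Otoa had a ratio of 1.11 (0.81 to 1.54) there. Intervals of the first 3 exclude 1 on counting error alone. Without the 5 top cells of each library the Tecta ratio was 5.02. That step took 5 of 12 noise-only cells with a Tecta UMI but 5 of 57 AAV-Isl1 cells. In the other sub-clusters with the most Tecta, its ratio was 1.24 (0.61 to 2.73) in Cspg5, 2.25 (0.90 to 6.72) in Ocm, 0.67 (0.30 to 1.64) in Tnfaip2 and 0.63 (0.32 to 1.31) in Ecrg4, and each of these intervals includes 1. Tecta UMIs lay in 7 noise-only and 27 AAV-Isl1 cells of Cspg5, and in 6 and 16 cells of Ecrg4. Without the 5 top cells of each library, the Cspg5 and Ecrg4 ratios were 3.82 and 2.70. Few noise-only cells with Tecta were then left, so these values do not check a direction.

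Ceacam16 went different ways in different sub-clusters. In the Mylk sub-cluster it was at 6244 CPM in noise-only and 4562 CPM in AAV-Isl1 cells, a ratio of 0.73 (0.67 to 0.80), while 97.7% and 93.3% of thinned cells had a Ceacam16 UMI, and Otoa was at 742 and 436 CPM, a ratio of 0.59 (0.43 to 0.79). In the Epyc sub-cluster Ceacam16 was at 1569 and 1977 CPM, a ratio of 1.26 (1.10 to 1.45). In the Rorb sub-cluster it was at 1890 and 2513 CPM, a ratio of 1.33 (1.09 to 1.61). The S100a13 ratio was 1.08 (0.87 to 1.32), but 0.76 when the sub-clustering was run at resolution 0.4. The differences between these sub-clusters were not tested.

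In the Ocm sub-cluster Otog had a ratio of 1.87 (1.44 to 2.46) and Otol1 1.75 (1.07 to 2.96). Otol1 stood at 0.93 with cells thinned to 1000 UMIs, however, and at 6.51 without its 5 top cells. Only 7 noise-only cells there had an Otol1 UMI, against 27 AAV-Isl1 cells, so the last value does not check a direction. The part of hair cell genes in the Ocm ratios was not tested.

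**Figure D5:**
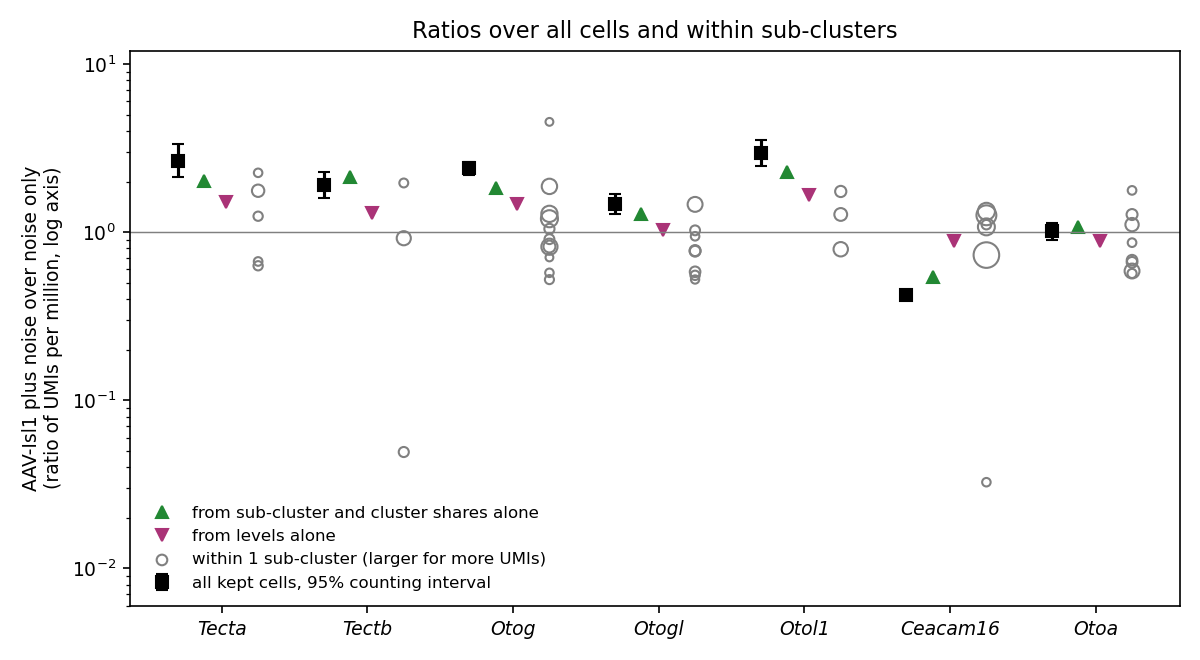
Ratio of CPM, with the AAV-Isl1 plus noise library above the noise-only one (y axis, log axis), for each gene: over all kept cells with its 95% counting interval, from shares of UMIs alone, from levels alone, and within each of 13 sub-clusters with at least 20 UMIs of the gene and UMIs in both libraries. Circles for Otog, Otol1 and Ceacam16 lie on both sides of 1, while their squares lie at 2.39, 2.97 and 0.42.

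Isl1 itself was checked in the cells that make the matrix. In the Tnfaip2 sub-cluster it had 16 noise-only UMIs (290 CPM) and 499 AAV-Isl1 UMIs (2267 CPM), a ratio of 7.83 (4.77 to 13.8). In the Ocm sub-cluster it had 5 and 260 UMIs, a ratio of 28.1 (11.9 to 87.4), in Gpc3 2 and 42 UMIs (10.3, 2.68 to 87.7), and in Cspg5 3 and 19 UMIs (2.63, 0.77 to 13.9). In the Mylk sub-cluster, the highest for Ceacam16, it had 3 and 26 UMIs (21.0, 6.44 to 108), and in Rorb, also high for Ceacam16, 51 and 17 UMIs (1.00, 0.54 to 1.76). Whether vector RNA is counted as the annotated Isl1 gene is not given in the sources used here.

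Partner genes of the same matrices were described by lists over all kept cells. Of all genes tested there, 5.82% were at least 1.5-fold higher and 2.47% at least 1.5-fold lower. Of 8 tectorial membrane collagens and other partners, 8 were measured, 1 (Strc, 20 and 35 UMIs) was at least 1.5-fold higher and 1 (Emilin2) lower. Emilin2, an extracellular glycoprotein, was at 232 and 98.4 CPM (ratio 0.43), and it led cluster 11, which lay outside the 3 clusters and held 948 and 463 cells. The next most counted were Col9a3, at 44.8 and 53.9 CPM (1.20), and Col11a2, at 36.2 and 34.8 CPM (0.96). The collagen genes Col11a1, Col9a1 and Col9a2, picked after their values were seen, were at 280, 107 and 435 CPM in the Cspg5 sub-cluster and at 240, 156 and 243 CPM in Tnfaip2, which made Otol1. In the Mylk sub-cluster, the highest for Ceacam16, they were at 59.1, 0 and 31.8 CPM.

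Of 11 genes for otoconia formation and mineral handling, 9 were measured and 1 was at least 1.5-fold higher. That was Slc4a1, also the anion exchanger of red blood cells, at 0.57 and 13.6 CPM, and a leading gene of the erythroid cell-like cluster 15 (222 and 802 cells), whose part in the ratio was not tested. Sparcl1, a matrix glycoprotein, was at 1346 and 1177 CPM (ratio 0.87), Sparc at 711 and 553 CPM (0.78) and Car2, a carbonic anhydrase, at 289 and 302 CPM (1.04). Among sub-clusters Sparcl1 was at 2173 CPM in Cspg5 and 828 CPM in Tnfaip2, and Nox3, an oxidase needed for otoconia, had a level above 0 in Ecrg4 alone, at 45.6 CPM. Of 9 genes that process or anchor such proteins, 9 were measured and 1, Tmprss3, was at least 1.5-fold lower (8.68 and 5.42 CPM). Adam10, Pigk and Furin had ratios of 0.98, 0.95 and 0.98.

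Of 12 cochlear region genes 11 were measured and 1, Epyc, was at least 1.5-fold lower, at 103 and 42.9 CPM, a ratio of 0.41 beside the 0.42 of Ceacam16. Tbx2 and Bace2, the next most counted of that list, had ratios of 0.94 and 0.98. Of 11 vestibular region genes 9 were measured, of which Cib3, a hair cell calcium sensor gene, was at least 1.5-fold higher (10.6 and 23.1 CPM) and Dlx5 at least 1.5-fold lower (6.27 and 3.99 CPM). Spp1, Anxa4 and Cyp26b1 had ratios of 1.11, 0.90 and 0.69. Within cluster 5, 6 of 7 measured vestibular genes were at least 1.5-fold higher and 0 lower, and 3 of 10 cochlear genes were higher and 3 lower. The higher cochlear genes were Prox1 (3.71), Lgr6 (3.43) and Hey2 (1.62), and the lower ones Epyc (0.51), Gata3 (0.60) and Fst (0.60). Gata3 and Epyc thus did not stand for the whole cochlear list in cluster 5. Of all genes there, 14.6% were higher and 6.96% lower. Some of these calls rest on few UMIs, such as Hmx2 (4 and 25), Hmx3 (8 and 19) and Prox1 (7 and 20).

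The genes with the most similar pattern were sought over the 26 clusters of at least 90 cells, by Pearson's r of log2(CPM + 10). For Otol1 they were C2cd4b, Slitrk6 and Gad1 (r = 0.96, 0.96 and 0.95), and for Tectb Gad1, Slitrk6 and Apoc3 (0.94, 0.94 and 0.90). Tecta was followed by Fermt1, P2rx2 and Slc9a4 (0.95, 0.95 and 0.95), Otog by Agr3, Fam110c and Mal2 (0.96, 0.96 and 0.95), and Otogl by Fam110c, P2rx2 and Tnk1 (0.98, 0.97 and 0.96). Otoa was followed by P2rx2, Fam110c and Mal2 (0.98, 0.96 and 0.96) and Ceacam16 by Rubie, Apoc3 and Tmem54 (0.91, 0.90 and 0.89). These are descriptions over clusters of the same 2 libraries. Over the 14 sub-clusters alone, an addition, the nearest genes were Dkk3, Sparcl1 and Corin for Otol1 (0.98, 0.98 and 0.97), Megf10 for Tectb (0.95), Zmat4 for Tecta (0.93) and Aox2 for Ceacam16 (0.94).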

How the data were processed

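Whole-number UMI counts per gene and barcode were deposited by the authors as 1 matrix per library, made with Cell Ranger 5.0.1 per the file headers (5.0, with STAR, Seurat 3.2.2 and mm10/GRCm38, per the submitters' processing notes). The members and lists used here were chosen with earlier results of these data known. Barcodes under 300 detected genes or above a mitochondrial share of 20% were dropped. The doublet caller's automatic threshold called 0 doublets, so a score above 0.2, set after the scores were seen, removed 1196 noise-only and 826 AAV-Isl1 barcodes. Cells were clustered with scanpy 1.11.5 and leidenalg 0.10.2 on 3129 variable genes (the members left out), 50 principal components, 15 neighbours and resolution 1. The 3 clusters highest in the members were clustered again on 3418 genes, 30 components and resolution 0.8. Counts were summed per library and group. Values from cells thinned to 1000 UMIs leave out every cell with fewer. Ratio intervals are exact conditional binomial, level intervals exact Poisson and shares exact Clopper-Pearson, all 95% (scipy 1.17.1). The ratio intervals alone were tested, on simulated independent Poisson totals. Such totals do not hold the gathering of UMIs in a few cells seen for Tectb. A count of 0 allows up to 3. Genes were measured where at least 50 UMIs were found over all cells, or 20 within a cluster. Named list genes are the 3 with the most UMIs in each list, and named similar genes the 3 with the highest r. Kept cells held 33626712 and 36377298 UMIs. Reads and vector sequence were not analysed here. The values of 1 sub-cluster are not reported here, though it is counted in the sums over all 14.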

Additional observations from a re-analysis of the deposited data

How the results depend on the processing

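No paired analysis was possible because each group is 1 pool of ears, and no replicate could be left out. The sub-clusters and every alternative within them were chosen after seeing the data. Over all kept cells, 44 recomputed values stayed within the interval of the reported ratio (counts of members within 1.5 times) and 10 did not. Without the 5 top cells of each library, ratios were 3.38 for Tecta, 3.27 for Tectb and 3.60 for Otol1. Fewer noise-only than AAV-Isl1 cells carry these 3 genes, so dropping 5 from each library raises their ratios by construction. With cells thinned to 1000 UMIs, they were 2.72 for Tectb, 2.15 for Otog, 1.27 for Otogl, 4.08 for Otol1, 0.37 for Ceacam16 and 0.84 for Otoa, and a stricter cell filter gave 1.59 for Tectb. In cluster 5, leaving out the top cells gave 7.07 for Tecta, 4.01 for Tectb and 4.42 for Otol1, thinning gave 3.52 for Tectb and 5.95 for Otol1, and the stricter filter gave 1.64 for Tectb. At resolution 0.5, where clusters 5 and 18 merged, ratios were 2.74 for Otog, 1.70 for Otogl, 0.45 for Ceacam16 and 1.05 for Otoa. In cluster 18, leaving out the top cells gave 6.11 for Tecta, 3.48 for Otog, 3.32 for Otogl and 0.26 for Ceacam16, and 0 members were at least 1.5-fold lower when the members were kept in the clustering. Within the Ocm sub-cluster, Otol1 reversed to 0.93 on thinning. The highest cluster levels at resolution 2 were 470.3 CPM for Otog, 175 CPM for Otol1 and 1923 CPM for Ceacam16. Asking for at least 2 UMIs, observed over expected was 0 for Tecta with Ceacam16 and, reversed, 0 for Tecta with Otoa. It was 9.86 for Otog with Otol1, 0.19 for Otog with Ceacam16, 0.10 for Otogl with Ceacam16 and 2.96 for Ceacam16 with Otoa. Without thinning, Otog with Otol1 stood at 4.06 and Ceacam16 with Otoa at 1.56. Without thinning, 46.1% of Otol1 cells and 68.0% of Ceacam16 cells had a cochlear list UMI, and 21.0% of Ceacam16 cells a vestibular one. Without Spp1 the vestibular shares were 28.2% for Otol1 and 6.48% for Ceacam16. Apart from the thinner data that thinning and dropped cells leave by construction, the cause was not tested. The depth, a median near 1000 UMIs, limits co-detection of the sparser genes Tecta, Tectb and Otol1, and 1 library per group limits every ratio to a description of these 2 pools.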

Other observations

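In the erythroid cell-like cluster 15, Otog was at 32.0 CPM in noise-only and 32.1 CPM in AAV-Isl1 cells, and Otogl at 21.3 and 13.0 CPM. Oc90 had 2 UMIs, both in the AAV-Isl1 library, 1 in the Tnfaip2 and 1 in the Ocm sub-cluster.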
